A study of Homo sapiens with 2 samples.

Results

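The miR-378 family is a set of closely related microRNAs, and the array used here carried 11 probes whose miRBase name starts with hsa-miR-378, out of 2632 human miRNA probes. The samples were exosomes, the small vesicles that cells shed into their medium, from U87MG delta EGFR glioblastoma cells, a human line whose name refers to a shortened form of the epidermal growth factor receptor. In the BNCT (boron neutron capture therapy) group the cells were held for 2 hours in 25 ppm of a p-boronophenylalanine-fructose complex, irradiated with thermal neutrons, and their medium was taken on day 3. The other group was labelled non-treated control; the labels carry the same treatment text for both samples, so it is not known whether the control cells had the compound, sham handling or the same collection time. Both groups were grown in medium with exosome-depleted fetal bovine serum, and although the titles name exosomes the extraction text speaks of cells. Each group had 1 array, so there is no replicate and no test, and differences are given as sizes with a spot error that covers noise within an array and nothing else. Compound, neutrons, handling, culture and slide cannot be told apart.

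The members were picked by name, but the family was singled out because hsa-miR-378a-5p had already been seen to read high on the control array and low on the BNCT array. Those values are therefore a description and support nothing by themselves.

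A miRNA hairpin can yield a mature strand from each of its arms, the 5p and the 3p, and each strand pairs with its targets mainly through its seed, bases 2 to 8. MIR378A lies in an intron of PPARGC1B, the gene of a transcriptional coactivator of mitochondrial metabolism, and its strands are known as regulators of energy use in muscle, liver and fat. In U87 glioblastoma cells forced expression of miR-378 was found to favour survival and vessel growth through the tumour suppressors SUFU and TUSC2, and that strand is the one now called 5p. The 3p strand is usually the more abundant and gives the family its shared sequence.

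The hairpin is shown because its arms are the contrast on which the results turn. In RefSeq (GRCh38.p14) MIR378A is at chr5:149732825-149732890 on the plus strand, inside the span of PPARGC1B on the same strand and 2515 bases from the start of that gene. Both mature arms are in capitals.
MIR378A hairpin: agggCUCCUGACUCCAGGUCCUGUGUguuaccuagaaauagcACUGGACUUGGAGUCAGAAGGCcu
In the predicted fold of this 66-base hairpin 18 of the 22 bases of the 5p arm paired with the 3p arm.

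The mature sequences show how the probes fall into a 5p probe and a group of near-copies. RefSeq held a mature sequence for 9 of the 11 members; miR-378d and miR-378e are named only and are grouped with the others by name. The seed is in capitals.
miR-378a-5p: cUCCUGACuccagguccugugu
miR-378a-3p: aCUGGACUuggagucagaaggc
miR-378b: aCUGGACUuggaggcagaa
miR-378c: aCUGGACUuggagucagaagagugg
miR-378f: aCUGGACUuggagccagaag
miR-378h: aCUGGACUuggugucagaugg
miR-378i: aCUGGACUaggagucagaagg
miR-378g: aCUGGGCUuggagucagaag
miR-378j: aCUGGAUUuggagccagaa

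The 3p seed is shared by miR-378a-3p, b, c, f, h and i. Counted from the 5′ end of miR-378a-3p, with its base first, the seed differs at A6G in miR-378g and at C7U in miR-378j. Outside the seed miR-378b carries U14G, miR-378f and miR-378j carry U14C, miR-378i carries U9A, miR-378h carries A12U and A19U, and miR-378c carries G21A and C22G and runs 3 bases longer. Probes for sequences this close are not independent readings. The likeness is one of sequence and not of arm: of the 5 members other than miR-378a whose hairpin was in the table, the mature strand of c, g, h and i lay on the 5′ side of its hairpin and only that of miR-378f on the 3′ side. The 10 members other than miR-378a-5p are called the 3p-type members here. No other sequenced probe on the array had the seed of miR-378a-5p.

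The 2 arrays had low signal. Blank spots averaged 254.9 scanner units on the BNCT array and 258.1 on the control array, with SDs of 6.27 and 6.93 (n = 312 spots each, the brightest and dimmest 5% dropped). A probe was called detected if its spot median lay over that mean plus 2 SD, which set limits of 267.5 units for BNCT and 272.0 for control. By this limit 36.2% of all miRNA probes were detected on the BNCT array and 28.6% on the control array. Spots printed without a probe, 112 per array, averaged 289.0 and 301.3 units on the BNCT and control arrays, and 110 and 112 of them were over the limit, so a reading just over it is no more than such spots gave. The header of the scanner file gave r2 values of 0.998 for the BNCT array and 0.910 for the control array between the readings at the scanner gains 1 and 2.

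Of the 11 members 1 was detected on the BNCT array and 3 on the control array, beside 36.2% and 28.6% of all probes. On the BNCT array miR-378e was above the limit, and on the control array miR-378a-5p, miR-378b and miR-378c were. Over all probes 12.3% were detected on the BNCT array alone, 4.64% on the control array alone and 59.2% on neither, against 1, 3 and 7 of the 11 members, and 23.9% on both, against 0 of 11. Since the family was chosen for this contrast, nothing is read from those shares.

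The strand that stood out was hsa-miR-378a-5p, the survival-promoting arm named above. Its spot read 252.3 units on the BNCT array and 311.1 units on the control array. The BNCT value lay at the level of the blanks, -0.42 SD from their mean, while the control value lay 7.64 SD over the mean of its own blanks. Spots without a probe averaged 301.3 units on the control array, and 17 of 112 read above it. A limit set from those spots, 322.2 units, was higher than the control value. After background correction, quantile normalization and log2, its level was 5.79 in BNCT and 6.95 in control, a difference (BNCT minus control) of -1.17 with a spot error of 0.13. Because the BNCT spot was under the limit, this difference stands as a bound. Under this processing miR-378a-5p read at least 1.99-fold lower in BNCT than in control, measured against the lowest detected level on the BNCT array. The bound depended on the processing, at 1.24-fold without background correction and 6.49-fold with plain subtraction of the blanks. A lower difference was found for only 2 of the 2630 probes read on both arrays, miR-1827 and miR-4256, and 0.114% of probes were lower in BNCT by 2-fold or more against 0.0% higher. Beyond 3 spot errors the balance was reversed, with 42 probes higher in BNCT and 23 lower. In the authors' deposited values miR-378a-5p was listed at 42.5 in control and had no value in BNCT.

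**Figure D1:**
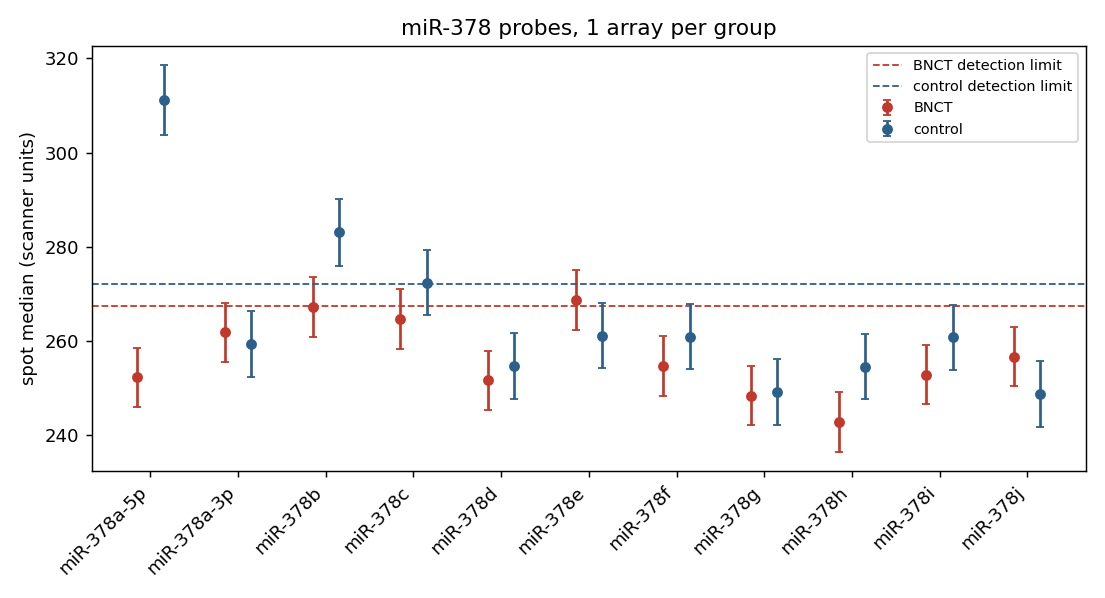
Spot median (scanner units) of the 11 miR-378 probes, BNCT in red on the left of each pair and control in blue on the right, 1 array each; bars are the spot error and dashed lines the detection limits of 267.5 and 272.0 units. The control spot of miR-378a-5p at 311.1 units stands clear of its limit, miR-378b at 283.1 units in control is the next above one, and the other readings lie near a limit or under it.

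The other arm of the same hairpin was detected on neither array. hsa-miR-378a-3p, which represses metabolic and growth genes and is the usual abundant strand, read 261.8 units on the BNCT array and 259.3 on the control array. Both values were under the limit, and the normalized difference was 0.05 with a spot error of 0.11. Net of the local background beside each spot, however, it stood 13.6 units high in BNCT and 51.1 in control, lower in BNCT as the 5p arm was. The gap between the arms, the 5p difference minus the 3p difference, was -1.21. It shrank to -0.42 without background correction and to -0.12 with the scanner's local background column, where the 3p arm itself was at -0.27, so the contrast between the arms depends on how background is taken.

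Set among the 831 hairpins with both arms read on both arrays, no hairpin had a lower gap than miR-378a under the blank-spot correction with quantile normalization, but 4 did without normalization and 325 did with the local background column. The median gap was 0.02 and the SD of the gaps 0.23, and the next lowest were miR-4433b at -1.05, miR-508 at -0.80 and miR-1908 at -0.69. Of 833 hairpins with both arms on the array, 15 had the detection pattern of miR-378a, with the 5p arm over the limit on the control array alone and the 3p arm over it on neither. The opposite arrangement, the 3p arm on the control array alone and the 5p arm on neither, was found for 23. Among those 15, miR-378a-5p had the highest bound, the next being 1.33-fold for miR-501-5p and the median 1.14-fold. miR-34a-5p was also among them, at 237.6 units in BNCT and 276.8 in control, with a bound of 1.14-fold. Its 3p arm read 271.5 units in control, just under the limit of 272.0. These are descriptions across hairpins of 1 pair of arrays, and they use the contrast by which the family was chosen.

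**Figure D2:**
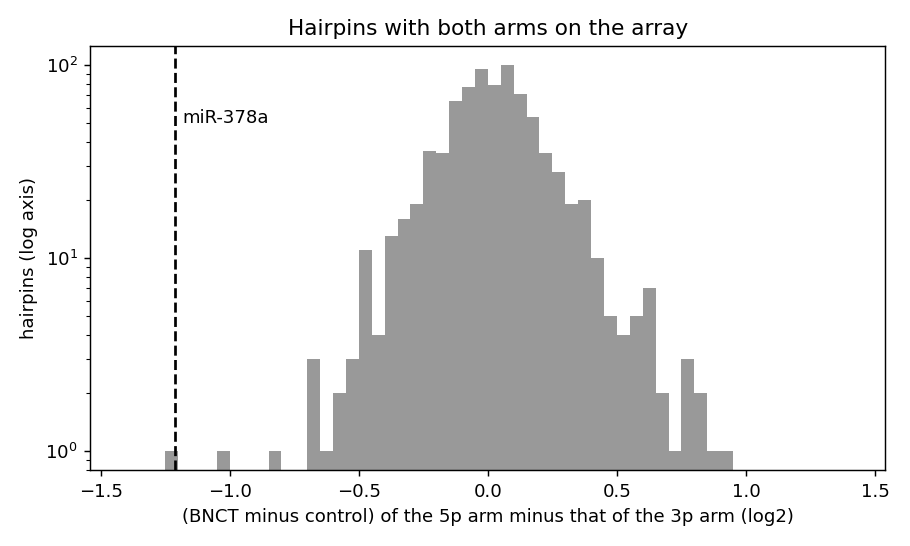
Histogram over the 831 hairpins of the 5p difference (BNCT minus control, log2) minus the 3p difference; the y axis counts hairpins on a log scale. The dashed line marks miR-378a at -1.21, at the low end under this processing (-0.12 with the local background column), with most hairpins near the median of 0.02.

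Among the 3p-type members the differences were small. Their raw spot medians ran over 242.8 to 268.6 units on the BNCT array (median 255.7) and over 248.7 to 283.1 on the control array (median 260.1), so the ranges overlapped widely. Their normalized differences had a median of -0.03, against 0.003 over all probes, and ran from -0.39 to 0.13. Together with the 5p probe 8 of 11 members were lower in BNCT, where 48.8% of all probes were lower (by raw spot median also 8 of 11 members, and 42.0% of all probes). Only miR-378a-5p lay beyond 2 spot errors, in either direction, where 7.72% of all probes did. Over all probes 23 (0.875%) were lower in BNCT by more than 3 spot errors and 42 were higher. The difference of miR-378a-5p was -8.73 in units of the spot error. That ratio is no test statistic, since the probe was chosen for its contrast. The spot error also rests on blanks without their brightest and dimmest 5%. All blanks set higher limits, 270.2 units for BNCT and 275.7 for control.

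The member next to it was hsa-miR-378b, which differs from miR-378a-3p at 1 base (U14G) and ends 3 bases earlier. It read 267.2 units on the BNCT array, just under the limit of 267.5, and 283.1 on the control array. Its difference was -0.39 with a spot error of 0.24, and under the same processing its bound was at least 1.31-fold lower in BNCT. So the detection on the control array alone rests on a fraction of a unit on the BNCT array.

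hsa-miR-378c, the longest of the sequences above, read 264.7 units in BNCT and 272.4 in control, against a control limit of 272.0. The difference was -0.14 with a spot error of 0.18, and the bound was 1.07-fold. It was within the spot error, and the control spot was over its limit by less than 1 unit.

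hsa-miR-378e, whose hairpin lies in the span of DOCK2 on chromosome 5, was the member detected in BNCT. Its spot read 268.6 units on the BNCT array and 261.1 on the control array. With a difference of 0.13 and a spot error of 0.13 the arrays could not be told apart, and no fold bound above 1 was obtained.

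The remaining 6 members were under the limit on both arrays, so their differences describe spots at the level of the blanks. hsa-miR-378f and hsa-miR-378i, printed side by side on the array, read 254.7 and 252.8 units in BNCT and 260.9 and 260.8 in control. hsa-miR-378h read 242.8 in BNCT and 254.6 in control. In each of these the BNCT spot was the dimmer, with normalized differences of -0.05, -0.06 and -0.06 for f, i and h. hsa-miR-378d read 251.7 in BNCT and 254.7 in control, and hsa-miR-378g, whose seed differs at A6G, read 248.4 and 249.2. Their differences of -0.01 and -0.003 were close to 0. hsa-miR-378j, with the C7U seed, ran the other way at 256.6 units in BNCT and 248.7 in control, a difference of 0.06 with a spot error of 0.07.

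**Figure D3:**
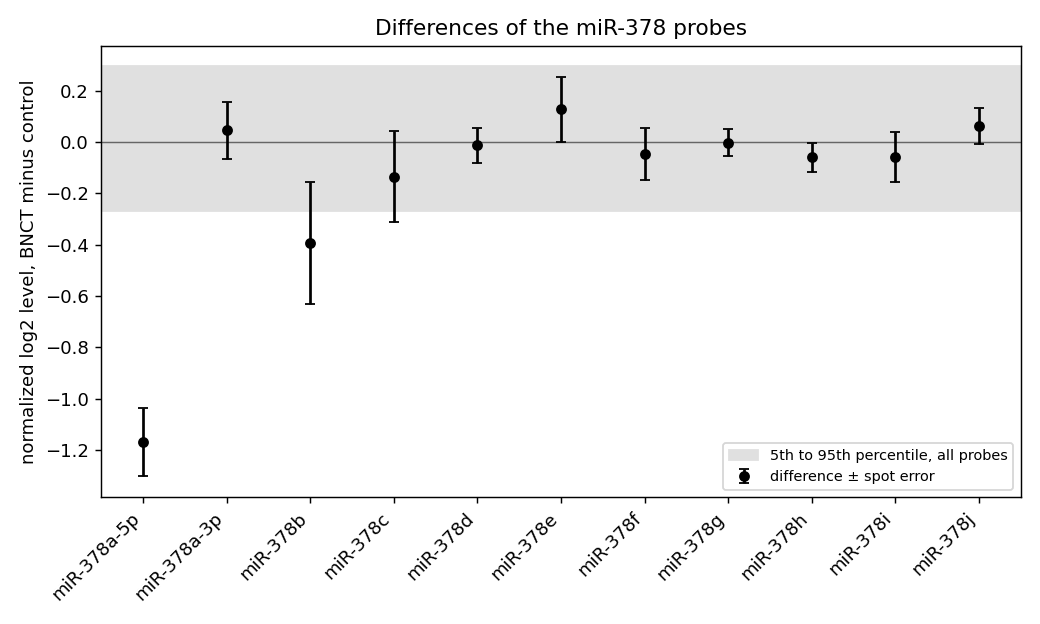
Normalized log2 difference (BNCT minus control) of each miR-378 probe. Bars are 1 spot error and the grey band spans the central 90% of all probes, -0.27 to 0.29. miR-378a-5p at -1.17 lies far under the band, miR-378b at -0.39 just under it, and the other 9 members lie inside it.

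A miRNA outside the family shares the 3p seed. miR-422a, shown for its differences from miR-378a-3p at G10A and A12G, reads as follows.
miR-422a: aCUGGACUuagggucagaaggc
It read 263.8 units in BNCT and 255.7 in control, under the limit on both arrays, with a difference of 0.10 and a spot error of 0.10. Of the 7 sequenced probes with that seed, miR-378b and miR-378c were detected, on the control array alone, and the other 5 on neither. Over all probes the shares were 4.64% on the control array alone and 59.2% on neither.

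Base composition moved with detection on both arrays. Among the 2337 probes with a RefSeq sequence, those at 30% to under 40% GC were detected in 3.89% of cases on the BNCT array and 5.39% on the control array, and those at 70% or more in 81.1% and 71.4%. miR-378a-5p has 59.1% GC, and the sequenced 3p-type members 47.4% to 55%. Within 2.5 percentage points of miR-378a-5p there were 275 probes, of which 53.8% were detected in BNCT and 38.2% in control. In that window 10 probes (3.64%) had its pattern of detection on the control array alone. Around miR-378a-3p, at 54.5% GC, 37.5% of 315 probes were detected in BNCT and 25.1% in control. The part of base composition in the contrast between the arms was not tested.

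**Figure D4:**
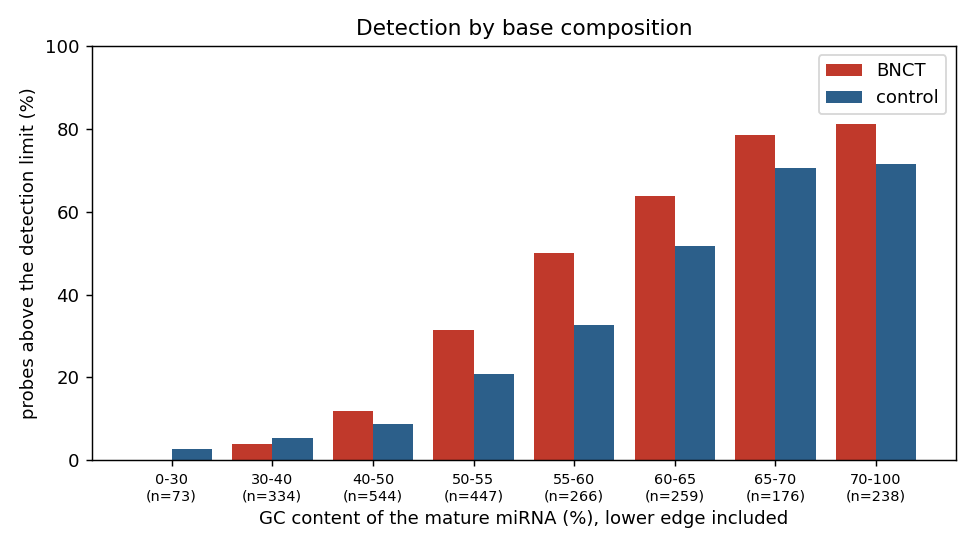
Share of probes (%) above the detection limit by GC content of the mature miRNA, BNCT red on the left and control blue on the right, with the number of probes under each bin. Detection climbs with GC on both arrays, to 81.1% in BNCT and 71.4% in control in the top bin.

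The reading of miR-378a-5p rests on 1 spot per array, without a scanner flag on either. Among its 5 adjoining spots miR-379-5p read 277.1 units in BNCT and 273.2 in control, and the other 4 lay between 242.8 and 274.3 in BNCT and between 249.8 and 264.0 in control. None of the neighbours was as bright as the 311.1 units of the control spot. In its block of 80 probes it had the lowest difference, the lowest of the others being -0.19. It was the only one there detected on the control array alone, beside 4.64% of all probes. Since the probe was chosen for its contrast, nothing is read from this place in the block. The local background beside the spot was 217.5 units in BNCT and 217.0 in control, nearly equal, so that the spot stood 34.8 units over it in BNCT and 94.1 in control. Of the spots printed without a probe, 112 of 112 read above the miR-378a-5p spot on the BNCT array and 17 of 112 on the control array. Of the 312 blank spots 194 did so in BNCT and 0 in control, where the brightest blank read 287.9. A faulty spot on either array cannot be told apart from a difference between the samples.

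For the other members the local background was less even and turned the raw direction of 6 of the 10 small differences. miR-378a-3p turned as given above. miR-378c stood 40.3 units over it in BNCT and 19.4 in control, the reverse of its raw order. miR-378e stood 49.4 units over it in BNCT and 63.2 in control, again reversed. With this background miR-378f (32.4 units in BNCT and 26.5 in control) and miR-378i (37.8 and 17.3) became higher in BNCT, and miR-378j (15.7 and 52.4) became lower. Blocks also differed: in block 17, which holds miR-378d and miR-378e, the median difference of the other probes was -0.13, and in block 18, which holds miR-378c, it was -0.08, against 0.02 in the block of miR-378a-5p.

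Across the 9 other ways of correcting and scaling the arrays, miR-378a-5p was lower in BNCT in 9 and lay under each of the 10 3p-type members in all of them. These settings reprocess the same spots by which the family was chosen, so they are not independent readings. No normalization and median, 75th percentile and spike scaling differ only by a constant shift per array, which cannot change the order of the probes. Its size depended on the correction, from -0.39 with the scanner's local background column and -0.40 without background correction to -2.07 with an offset of 16. With plain subtraction of the blanks it came to -6.19, a value set by the floor of 1 unit, because the BNCT spot was dimmer than the blank mean. The bound ran from 1.24-fold without background correction to 6.49-fold with plain subtraction. With the local background column the margin to the lowest 3p-type member, miR-378h at -0.34, was small. The sign of the 3p-type median followed the scaling. It was -0.54 with scaling to the median of shared probes and 0.25 with scaling to the spike controls. Those settings moved the median of all probes to -0.47 and 0.32. In each setting the 3p-type median lay slightly under that of all probes, or equal to it with plain subtraction.

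**Figure D5:**
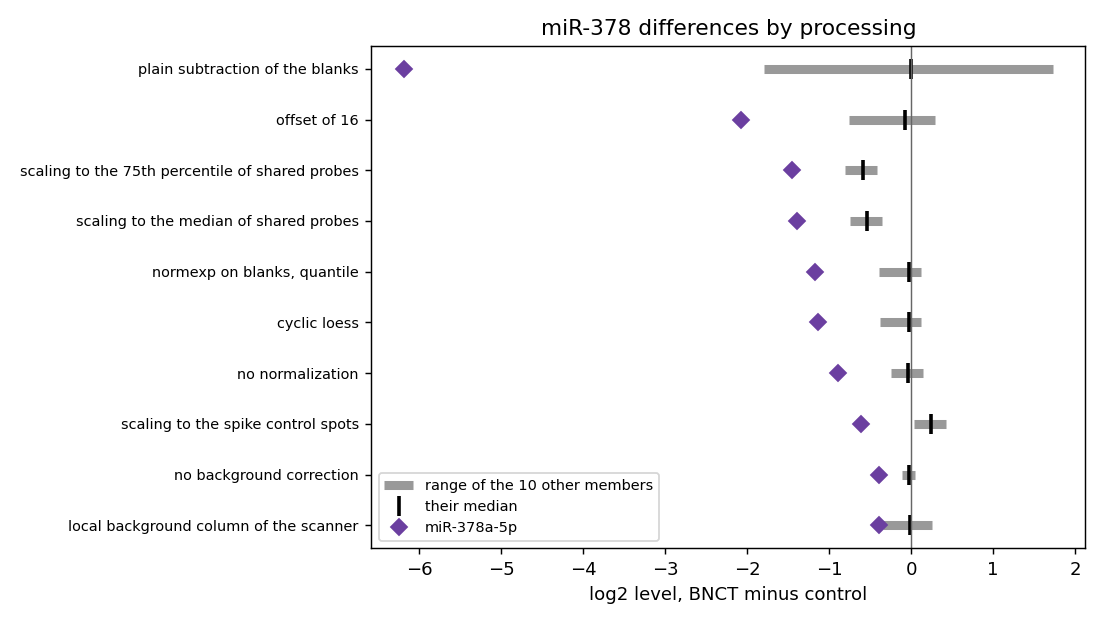
Log2 difference (BNCT minus control) under each processing: purple diamonds are miR-378a-5p, grey bars the range of the 10 3p-type members and black ticks their median. The diamond lies left of the bar in each row, at -0.39 in the row nearest to 0 and at -6.19 with plain subtraction.

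The probes whose pair of normalized levels lay closest to that of miR-378a-5p, by Euclidean distance over the 2 arrays, were let-7g-3p at 0.30, miR-6872-3p at 0.37, miR-6070 at 0.37, the joint probe of miR-520b-5p and miR-519a-2-5p at 0.38 and miR-1470 at 0.39. let-7g-3p, the passenger strand of a let-7 hairpin, read 267.2 units in BNCT and 296.4 in control, a difference of -0.75 with a spot error of 0.16. Ranked by bound among the 122 probes detected on the control array alone, miR-378a-5p at 1.99-fold came after miR-1827 at 5.12-fold and miR-4256 at 3.44-fold and before let-7g-3p at 1.68-fold, with a median of 1.14-fold.

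Of 13 miRNAs known from muscle and brown fat, where the family acts, 2 were above the limit in BNCT and 1 in control, beside 36.2% and 28.6% of all probes. In BNCT 5 of the 13 were lower, beside 48.8% of all probes, with a median difference of 0.02 beside 0.003 over all probes. The muscle miRNA miR-133a-3p passed both limits, at 272.5 units in BNCT and 274.7 in control, a difference of -0.07 with a spot error of 0.21. miR-486-5p, abundant in muscle and red cells, was over the limit in BNCT alone, at 270.5 units against 259.8 in control, with no fold bound above 1.

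Of 16 vessel-growth miRNAs 3 were detected in BNCT and 1 in control, beside 36.2% and 28.6% of all probes. In BNCT 7 of the 16 were lower, beside 48.8% of all probes, and the median difference was 0.01. miR-296-5p, known for raising growth factor receptors in endothelial cells, was the one on both arrays, at 329.9 units in BNCT and 303.1 in control, a normalized difference of -0.10 with a spot error of 0.15. miR-132-3p and miR-130a-3p were over the limit in BNCT alone, at 269.2 and 268.0 units in BNCT against 265.1 and 254.0 in control, with no fold bound above 1.

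Markers of other sources were read beside the 36.2% of all probes detected in BNCT and 28.6% in control. Of 5 blood and serum miRNAs 3 were detected in BNCT and 0 in control. The summed signal of the 5 over the blanks was 57.5 units in BNCT and 17.2 in control. Those detected were miR-486-5p, miR-223-3p and miR-144-3p. They read 270.5, 273.8 and 268.9 units in BNCT against 259.8, 268.2 and 254.4 in control. The red cell miR-451a and miR-142-3p were under the limit on both arrays. Of 3 muscle markers miR-133a-3p was detected, and the summed signal was near 0 on both arrays (-0.26 in BNCT and -3.61 in control). Of 2 neuronal markers miR-124-3p was over the limit in BNCT alone, at 269.7 units against 270.9 in control, and the sums were 9.45 and -2.47 units. Of 4 miRNAs abundant in glioblastoma lines miR-24-3p was detected, at 915.6 units in BNCT and 620.0 in control, while miR-21-5p, miR-221-3p and miR-222-3p were under the limit on both. The normalized difference of miR-24-3p was 0.14 with a spot error of 0.13. The units and sums of these markers are raw and not scaled between the arrays. The part of these sources in the miR-378a-5p result was not tested.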

How the data were processed

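Per the file headers, each deposited scanner file gives spot brightness as a median intensity on a linear scale, joined from 3 gains, with a background median and flags per spot. It was not scaled between arrays. The authors' processed intensities equal the spot median minus a constant (254.9 for BNCT, 258.1 for control), divided by a factor (1.54 and 1.25), to a largest residual of 8.82e-07, and no software for it is named in the sources used here. Groups came from the treatment label. Spots were corrected in R 4.3.3 with limma 3.58.1 (nec on the blanks, offset 50), put on the log2 scale and quantile-normalized over 2632 probes; 2 flagged control spots were left out. The spot error joins the blank SD and the spike CV, carried to the normalized scale. Bounds use the higher of the lowest detected level on the dim array and the probe's own. Folds were computed with RNAfold 2.7.2. The procedure was tested on data simulated from the control array, with known changes only in probes well over the blanks. That test did not cover changes in probes as dim as the 3p-type members. Members, lists and settings were chosen with earlier results of these data known. Named miRNAs are the family, 5 nearest probes, adjoining spots and detected list members; others, such as the hairpins named beside miR-378a, the leading control-only probes and undetected markers, were chosen after their values were seen. With so few arrays their number limits the precision.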

Additional observations from a re-analysis of the deposited data

How the results depend on the processing

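With 1 array per group no array could be left out. No paired analysis was possible because each group has 1 sample. The bound of miR-378a-5p was 1.99-fold as reported and moved to 6.49 with plain subtraction, 1.24 without background correction, 3.14 with an offset of 16, 1.31 with the local background column, 2.30 and 2.39 with scaling to the median and the 75th percentile of shared probes, 1.62 without normalization, 1.34 with spike scaling, 5.28 in the authors' values and 1.62 with a limit at 5 SD. Its difference was -6.19, -0.40, -2.07, -0.39, -1.40, -1.45, -0.90 and -0.61 under the first 8 of these, in the same order. The median of the 3p-type members moved to -0.54, -0.59 and 0.25 with median, 75th percentile and spike scaling. The gap between the arms of miR-378a, recomputed after seeing the data, moved to -7.83 with plain subtraction, -0.42 without background correction, -2.18 with an offset of 16, -0.12 with the local background column, and -0.94 without normalization and with median, 75th percentile and spike scaling. Cyclic loess moved none of these values by a spot error. Members detected on the BNCT array fell to 0 with a limit at 5 SD, from spots without a probe, from all blanks, or with the higher limit on both arrays (chosen after seeing the data). On the control array 1 remained at 5 SD (miR-378a-5p), 0 with spots without a probe and 2 with all blanks. Among all probes the BNCT share was 19.9% at 5 SD, 14.7% with spots without a probe and 32.1% with all blanks. With the higher limit it was 29.6%. The control share was 13.5% at 5 SD, 8.55% with spots without a probe and 23.9% with all blanks. Nothing about the family is read from these counts. Beside 36.4% of probes in BNCT and 28.9% in control, the authors' values list the same 1 and 3 members. They gave no difference for miR-378a-5p or median for the 3p-type members, because no member is listed on both arrays, and no 3p-type member was detected on both. All family readings lie near the blanks or under the limit from spots without a probe, which limits their precision.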
